A study of Mus musculus with 6 samples.

Results

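Some ribosomal protein genes of the mouse have a close relative elsewhere in the genome, a paralogue, whose product can take the same place in the ribosome or has taken on another task. The paralogues Rps27l, Rpl22l1, Rpl39l, Rpl7l1 and Rpl3l were measured here together with their partners Rps27, Rpl22, Rpl39, Rpl7 and Rpl3. The genes were taken by symbol from a table of RNA counts, in which these 10 genes are 10 of 53465. Of the 10, 8 passed the filter on low counts, and Rpl39l and Rpl3l did not.

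RNA was sequenced from 6 cell lines grown from liver tumours of C57BL/6 mice, which the study describes as independent. The 3 lines of genotype Myc_Utx (2A, 2B and 2D) came from tumours induced with Myc and with Cas9 and guides against Kdm6a, the X-linked histone demethylase gene also called Utx. The 3 lines of genotype Myc_p53 (1, 2 and 3) came from tumours induced with Myc and a guide against p53, the tumour suppressor and transcription factor. Both groups therefore carry the Myc transposon, delivered into hepatocytes by hydrodynamic injection into the tail vein, and neither group is an unedited control, so a difference between them cannot be assigned to the loss of one gene or to the function of the other. A group is thus 3 tumour lines, and the edgeR tests set the difference between the groups against the spread between such lines. The Myc_Utx labels share the number 2, and what it stands for is not given, nor which guide each line received.

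Ribosomal proteins are made in nearly equal amounts and join the ribosomal RNAs to form the small (Rps) and large (Rpl) subunits. Rps27l is known as a gene that p53 activates, and Rps27 and Rps27l are small subunit proteins that replace each other. The Rpl22 protein is known to hold down Rpl22l1 RNA. Rpl39l is used mainly in the male germ line and Rpl3l mainly in striated muscle, while Rpl7l1 is related to a factor of large subunit assembly. These are background and not results.

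Total counts were between 4656103 and 6937497 per line, and 3 counts, taken as the floor, equal 0.428 to 0.668 CPM, the usual unit of counts scaled to library size. Log2 CPM of the tested genes correlated between lines of one genotype with r of 0.942 to 0.949 (Myc_Utx) and 0.878 to 0.938 (Myc_p53), and between lines of different genotype with r of 0.824 to 0.868. Trp53, which encodes p53, had 294.2, 295.5 and 275.9 CPM in the Myc_Utx lines and 32.4, 34.48 and 35.79 CPM in the Myc_p53 lines (log2 difference 3.07, SE 0.11, edgeR adjusted p = 0.000488). Kdm6a had 39.69, 45.69 and 48.99 CPM in the Myc_Utx lines and 69.53, 64.5 and 42.49 CPM in the Myc_p53 lines. The Kdm6a ranges overlapped and the difference did not pass the test (log2 difference -0.39, SE 0.22, edgeR adjusted p = 0.243), and RNA counted over the whole gene does not show whether its sequence was edited. The counts of the mouse gene Myc did not pass the test either (log2 difference -0.16, SE 0.24, edgeR adjusted p = 0.667). Whether they include RNA of the introduced Myc cannot be told from these counts.

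The lines are labelled as liver tumour cells, but Alb, which encodes albumin, had few counts. There were 14, 26 and 4 counts of Alb in the Myc_Utx lines and 15, 7 and 16 in the Myc_p53 lines. The epithelial keratin Krt8 had 61, 200 and 0 counts in the Myc_Utx lines and 4537, 83 and 3130 in the Myc_p53 lines, and Krt18 had 48, 256 and 0 against 2984, 108 and 2208. Hepatocyte marker RNA summed to 2.672 to 93.43 CPM in the Myc_Utx lines and to 39.29 to 1206 CPM in the Myc_p53 lines, where these keratins made up most of the highest sums, and 1 of its 7 genes was above the floor in every line. The hepatocyte genes did not all move with this sum. Apoa1 had 3, 5 and 3 against 0, 1 and 2 counts, whereas Hnf4a had 3, 3 and 0 against 64, 8 and 47. Afp had 3, 5 and 5 against 20, 3 and 18 counts, and Ttr 2, 4 and 0 against 10, 2 and 0. Macrophage markers (Adgre1, C1qa, C1qb, Cd68, Csf1r and Lyz2) summed to 2.792 to 5.992 against 35.96 to 100.5 CPM. The part of these differences in the results below was not tested. In bulk RNA, fewer cells of a type and less RNA per cell cannot be told apart.

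The coding sequences of Rps27 and Rps27l are shown because the rest of the account turns on how well reads of this pair can be told apart. They are read 5′ to 3′ from the main GENCODE M21 transcripts (GRCm38), and capitals mark the bases at which the pair differs.
Rps27: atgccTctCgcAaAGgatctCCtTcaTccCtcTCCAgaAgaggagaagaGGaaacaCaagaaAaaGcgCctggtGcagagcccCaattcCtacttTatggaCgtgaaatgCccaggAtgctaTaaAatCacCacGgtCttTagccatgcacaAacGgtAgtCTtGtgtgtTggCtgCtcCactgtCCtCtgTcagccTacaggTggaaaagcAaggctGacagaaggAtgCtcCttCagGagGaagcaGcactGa
Rps27l: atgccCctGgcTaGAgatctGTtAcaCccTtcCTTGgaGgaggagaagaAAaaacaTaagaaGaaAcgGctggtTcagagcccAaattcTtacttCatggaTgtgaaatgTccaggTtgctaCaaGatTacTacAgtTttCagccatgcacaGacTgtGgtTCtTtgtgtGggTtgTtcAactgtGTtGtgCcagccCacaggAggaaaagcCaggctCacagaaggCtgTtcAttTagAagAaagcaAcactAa
Both run over 255 bases, of which 61 differ (76.1% identity), and the longest identical run is 11 bases. Translation gave 81 of 84 identical residues. The proteins are thus nearly alike while the RNAs are not, and no 50-base window of one main transcript occurs in the other.

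**Figure D1:**
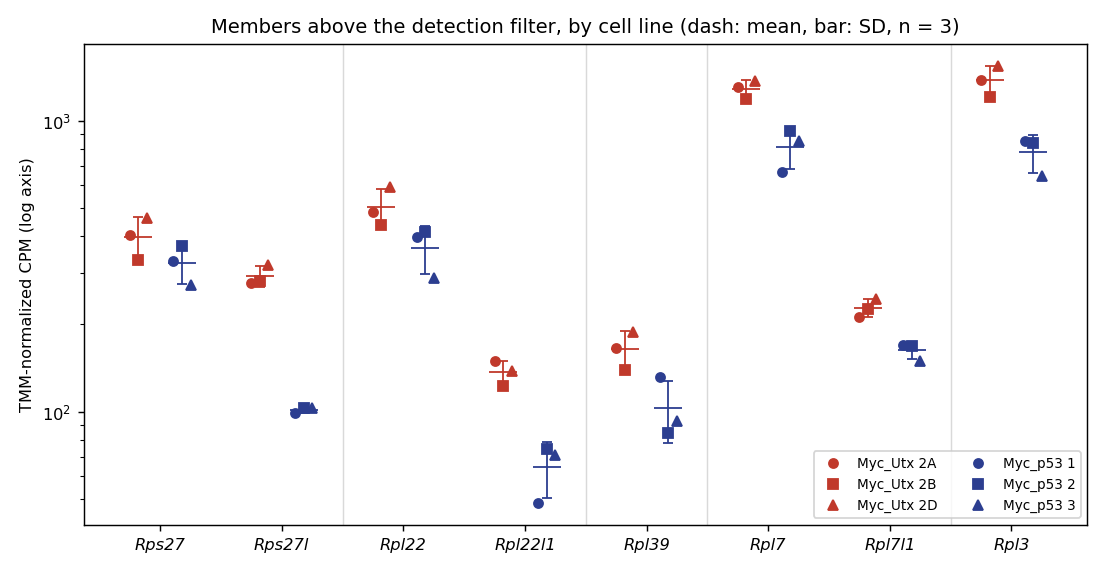
TMM-normalized CPM (log axis) of the 8 members above the detection filter in each cell line, red for Myc_Utx and blue for Myc_p53, with the mean as a dash and the SD as a bar (n = 3). The Rps27l points of the genotypes lie far apart, at 276.4 to 318.9 against 98.61 to 103.1 CPM, whereas the Rps27 points overlap.

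Rps27l was higher in the Myc_Utx lines and its partner Rps27 was not shown to differ. Rps27l had 1386, 1502 and 1432 counts in Myc_Utx 2A, 2B and 2D and 624, 556 and 723 counts in Myc_p53 1, 2 and 3, which gave 276.4, 281.2 and 318.9 against 98.61, 103.1 and 103.1 CPM. The groups lay apart, and the 3 Myc_p53 lines were within a narrow band. Mean levels were 292.2 ± 23.25 and 101.6 ± 2.577 CPM (SD, n = 3 each), a 2.88-fold difference (log2 1.52, SE 0.10, edgeR adjusted p = 0.00511). Of the 11510 genes tested, 5 had a smaller edgeR p before adjustment, 1 had a smaller adjusted p and 246 had a larger log2 difference. With Myc_Utx 2A left out the log2 difference was 1.58 and the edgeR adjusted p rose to 0.0518, the one omission that took the call away.

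Rps27 had 403.7, 332.4 and 462.7 CPM in the Myc_Utx lines and 329.2, 370.9 and 273.2 CPM in the Myc_p53 lines. The ranges overlapped, Myc_p53 2 lying above Myc_Utx 2B. The means of 399.6 ± 65.29 and 324.4 ± 49.02 CPM (SD, n = 3 each) differed by 0.30 on the log2 scale (SE 0.17, edgeR adjusted p = 0.254). An offset for gene length brought this difference to 0.02 (edgeR adjusted p = 0.946) and that of Rps27l to 1.21 (edgeR adjusted p = 0.00797).

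Within each line the balance of the pair shifted towards Rps27l in Myc_Utx. Rps27l made up 40.6% (39.0 to 42.3, exact Clopper-Pearson 95% interval), 45.8% (44.1 to 47.6) and 40.8% (39.2 to 42.4) of the pair's counts in Myc_Utx 2A, 2B and 2D. In Myc_p53 1, 2 and 3 it made up 23.1% (21.5 to 24.7), 21.7% (20.2 to 23.4) and 27.4% (25.7 to 29.1). No line of one genotype reached the range of the other, and the intervals cover counting error only. Per 100 counts of Rps27 there were 74.0 ± 9.18 counts of Rps27l in Myc_Utx and 31.8 ± 5.2 in Myc_p53 (SD, n = 3 each). The log2 ratio of the counts, which does not depend on library size, was -0.44 ± 0.17 against -1.66 ± 0.23, a 2.33-fold difference (two-sided exact permutation p = 0.1, adjusted over the 5 pairs 0.333). An exact p of 0.1 is the smallest that 3 lines against 3 allow, so no ratio could pass a threshold of 0.05.

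**Figure D2:**
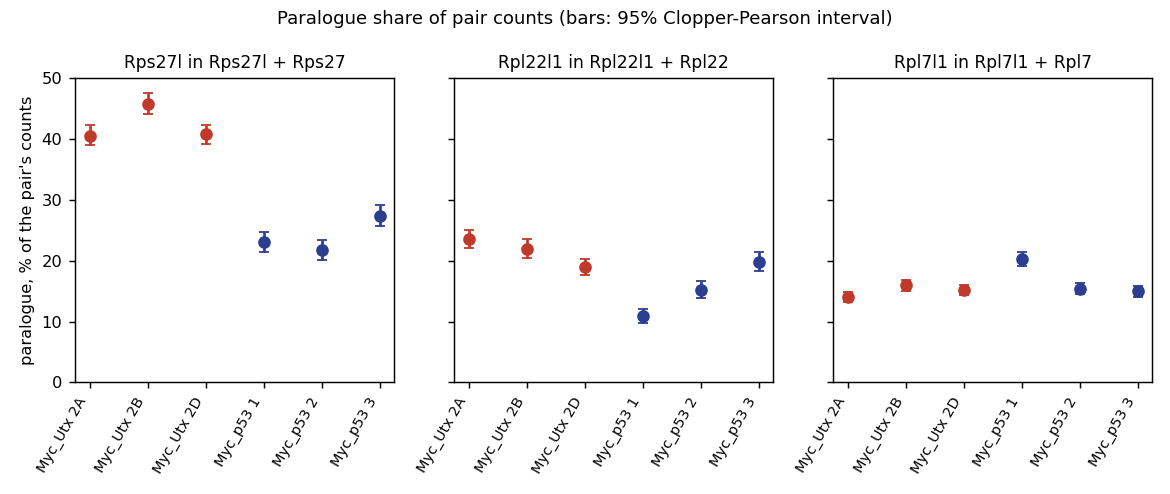
Paralogue share of the summed counts of each pair (percent) in each cell line, with exact Clopper-Pearson 95% intervals as bars, red for Myc_Utx and blue for Myc_p53. Rps27l took 40.6 to 45.8% against 21.7 to 27.4%, while the Rpl22l1 and Rpl7l1 shares of the genotypes overlapped.

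The pair as a whole was also higher in Myc_Utx. Rps27 and Rps27l summed to 691.8 ± 84.62 CPM in Myc_Utx and to 426.0 ± 48.86 CPM in Myc_p53 (SD, n = 3 each, no overlap, two-sided exact permutation p = 0.1). Of the difference of 265.8 CPM, 190.6 CPM or 71.7% was counted for Rps27l and 75.17 CPM for Rps27. Most of the additional CPM of this pair was thus counted for the paralogue. The Rps27 part is a difference that did not pass the test (edgeR adjusted p = 0.254). CPM are not scaled to transcript length, and how reads of sequence shared with other genes were counted is not known. The split of the RNA itself is therefore uncertain.

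Rps27 lies on chromosome 3 (GRCm38, 90212522 to 90213651, minus strand) and Rps27l on chromosome 9 (66946086 to 66949516, plus strand), each a protein-coding gene of 4 exons. The 250 bases before the start site of each are shown, because transcription of the pair is set from separate promoters. They are RefSeq sequences of GRCm38.p6, read along the gene's own strand, at chr3:90213649-90213898 (minus strand) for Rps27 and chr9:66945836-66946085 (plus strand) for Rps27l. The search on both strands covered CACGTG (the E-box that MYC binds), TATAAA (the TATA box) and the half-site of p53 by its known consensus, without overlap between these motifs in the windows shown.
Rps27: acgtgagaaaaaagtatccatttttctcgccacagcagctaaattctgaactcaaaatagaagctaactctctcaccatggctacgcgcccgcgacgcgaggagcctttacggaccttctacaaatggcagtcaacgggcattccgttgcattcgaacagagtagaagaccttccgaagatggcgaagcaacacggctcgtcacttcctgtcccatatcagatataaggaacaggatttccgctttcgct
Rps27l: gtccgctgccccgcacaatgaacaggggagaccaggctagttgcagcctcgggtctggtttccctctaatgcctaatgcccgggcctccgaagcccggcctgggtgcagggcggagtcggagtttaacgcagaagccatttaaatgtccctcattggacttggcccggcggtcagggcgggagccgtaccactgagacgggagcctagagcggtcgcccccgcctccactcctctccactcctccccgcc
Both windows held none of the 3 motifs, so there are no capitals, and their GC contents were 48.8% and 65.2%. Of 32851 mouse promoter windows of this length, 6.02% held CACGTG, 12.4% held TATAAA and 7.13% held a p53 half-site. The missing letters say nothing of whether a factor binds there.

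RefSeq gives Rps27l a further start site 327 bases into the gene, and its window, chr9:66946163-66946412 (plus strand), is shown because it held 2 p53 half-sites, marked in capitals.
Rps27l further start: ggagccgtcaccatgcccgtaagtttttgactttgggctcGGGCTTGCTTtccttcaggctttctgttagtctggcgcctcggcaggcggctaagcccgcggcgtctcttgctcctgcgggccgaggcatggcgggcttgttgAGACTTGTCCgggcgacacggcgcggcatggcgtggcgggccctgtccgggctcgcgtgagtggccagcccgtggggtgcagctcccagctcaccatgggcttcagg
Both matches lie in intron 1, at 66946203 to 66946212 and 66946306 to 66946315, with 93 bases between them. Of all windows, 0.259% held 2 or more, but this window was picked for its matches, so the share does not measure how unusual they are. A match to letters is a description and does not show that p53 binds.

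**Figure D3:**
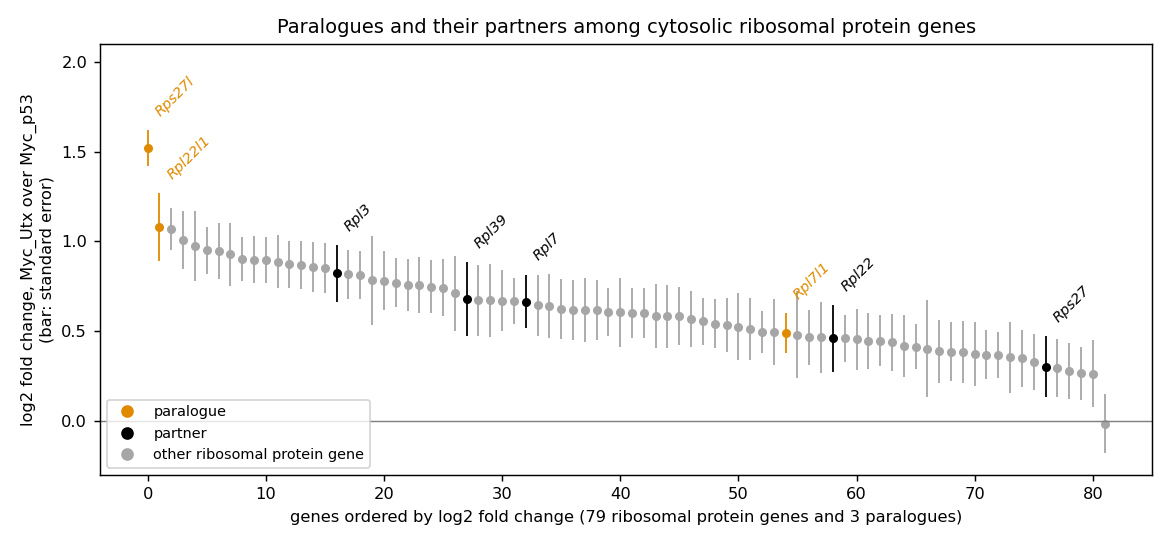
Log2 difference, Myc_Utx over Myc_p53, with its standard error for 79 cytosolic ribosomal protein genes and 3 paralogues, ordered by size, with paralogues in orange, partners in black and other ribosomal protein genes in grey. Rps27l, at 1.52, lies above the highest ribosomal protein gene (1.07), Rpl22l1, at 1.08, lies level with that gene, and the Rps27l partner Rps27, at 0.30, lies near the low end.

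The pair stood within a set of genes that was mostly higher in Myc_Utx. Of all tested genes, 805 or 6.99% were called higher and 885 or 7.69% lower at an edgeR adjusted p under 0.05, and 21.1% were higher and 20.9% lower in every line of Myc_Utx than in any line of Myc_p53. All 8 members tested had at least 307 counts in every line, and 5 were called higher (Rps27l, Rpl22l1, Rpl7, Rpl7l1 and Rpl3), and none was called lower. Without Myc_Utx 2A, 2B or 2D or Myc_p53 3 these were 0, 1, 1 and 1 members, and over all genes 3, 43, 43 and 63 were then called higher (481 without Myc_p53 1). The groups did not overlap for 7 of the 8, Rps27 being the exception, and the median log2 difference of the 8 was 0.67 against -0.01 over all tested genes. Among 74 other cytosolic ribosomal protein genes, the 5 partners left out, 30 or 40.5% were called higher, 60 did not overlap and the median was 0.60. Ribosomal protein RNA took 5.91 ± 0.685% of all counts in Myc_Utx and 4.09 ± 0.465% in Myc_p53 (SD, n = 3 each).

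By subunit, 16 of 32 small subunit genes and 16 of 47 large subunit genes were called higher and none lower, with medians of 0.61 and 0.57. Without Myc_Utx 2A, 2B or 2D or Myc_p53 3, at most 1 small and 0 large subunit genes were called. The highest differences were those of Rps19 (log2 1.07, SE 0.12, edgeR adjusted p = 0.0127), a small subunit protein mutated in Diamond-Blackfan anaemia, and the large subunit proteins Rpl13a (1.01, SE 0.16, adjusted p = 0.0186) and Rpl41 (0.97, SE 0.20, adjusted p = 0.0284). The lowest were Rpl23a (-0.01, SE 0.16, adjusted p = 0.96), Rpl15 (0.26, SE 0.19, adjusted p = 0.36) and Rps3a1 (0.27, SE 0.15, adjusted p = 0.249), none of which passed the test. Those with the highest mean CPM were Rpl4, Rplp0, which encodes a protein of the ribosomal stalk, and Rps2, with log2 differences of 0.45, 0.37 and 0.55, of which only that of Rps2 passed (edgeR adjusted p = 0.0403). In this order the partners ranked 15 (Rpl3), 26 (Rpl39), 31 (Rpl7), 57 (Rpl22) and 74 (Rps27) of 79. The paralogues Rps27l (1.52) and, by a margin far within its standard error, Rpl22l1 (1.08) lay above every gene of the list in this fit, while Rpl7l1 (0.49) lay within it. No test of that order was made.

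Rpl22l1 was also higher in Myc_Utx, but its balance with Rpl22 overlapped between the genotypes. Rpl22l1 (chromosome 3, 28805436 to 28807424) had 149.0, 122.6 and 138.3 CPM in the Myc_Utx lines and 48.51, 74.14 and 71.01 CPM in the Myc_p53 lines. The groups lay apart, with Myc_p53 1 lowest. The means of 136.6 ± 13.24 and 64.55 ± 13.98 CPM (SD, n = 3 each) differed 2.12-fold (log2 1.08, SE 0.19, edgeR adjusted p = 0.0213). This call was lost without Myc_Utx 2A, 2B or 2D or without Myc_p53 3 (edgeR adjusted p = 0.0614 to 0.0821, the highest without Myc_Utx 2D).

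Rpl22 (chromosome 4, 152325742 to 152334071) had 484.4, 436.1 and 591.0 CPM in the Myc_Utx lines and 398.5, 413.5 and 287.2 CPM in the Myc_p53 lines. The ranges did not overlap, though Myc_Utx 2B and Myc_p53 2 were close, and the difference did not pass the test (log2 0.46, SE 0.19, edgeR adjusted p = 0.135). Rpl22l1 made up 23.5, 22.0 and 19.0% of the pair's counts in the Myc_Utx lines and 10.9, 15.2 and 19.8% in the Myc_p53 lines, so that Myc_p53 3 lay above Myc_Utx 2D. The ratio differed 1.55-fold (log2 0.64, two-sided exact permutation p = 0.2, adjusted over the 5 pairs 0.333). This log2 value was 0.37 without Myc_p53 1 and 0.88 without Myc_p53 3. In the sum of the pair 34.4% of the difference of 209.5 CPM came from Rpl22l1.

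Rpl7 and Rpl7l1 were both higher in Myc_Utx, and their balance overlapped between the genotypes. Rpl7, a large subunit protein gene on chromosome 1 (16101295 to 16104662), had 1305, 1190 and 1368 CPM in the Myc_Utx lines and 665.6, 921.2 and 849.1 CPM in the Myc_p53 lines. Rpl7l1, on chromosome 17 (46773907 to 46782656), had 211.6, 225.8 and 244.5 CPM against 169.7, 167.7 and 149.6 CPM. Neither overlapped between the genotypes. The log2 differences were 0.67 (SE 0.15, edgeR adjusted p = 0.0362) and 0.49 (SE 0.11, edgeR adjusted p = 0.0363).

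Both calls were near the threshold and were kept only without Myc_p53 2 among the 6 omissions of a line. They were also lost with the gene length offset (edgeR adjusted p = 0.0577 for Rpl7 and 0.0654 for Rpl7l1). Rpl7l1 made up 15.1 ± 1.01% of the pair's counts in Myc_Utx and 16.9 ± 2.95% in Myc_p53 (SD, n = 3 each), with overlap. The ratio differed by -0.19 on the log2 scale (two-sided exact permutation p = 0.5, adjusted over the 5 pairs 0.5), and by -0.02 without Myc_p53 1. Only 12.0% of the difference of 540.7 CPM in the pair's sum was counted for Rpl7l1.

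For Rpl39 and Rpl3 only the partner was measured above a few counts. Rpl39 (X chromosome, 37082520 to 37085402) had 165.5, 139.5 and 188.4 CPM in the Myc_Utx lines and 131.3, 84.34 and 92.68 CPM in the Myc_p53 lines, without overlap, and the log2 difference of 0.68 (SE 0.21) did not pass the test (edgeR adjusted p = 0.0701). It passed with DESeq2 (adjusted p = 0.0265) and in edgeR without Myc_p53 1 (log2 0.89, adjusted p = 0.0408). Rpl39l (chromosome 16, 10170226 to 10174911) had 0 counts in all 6 lines. With 455 to 846 counts of Rpl39 per line, the floor of 3 counts corresponds to 0.355 to 0.659% of the pair, and the upper limits of the exact Clopper-Pearson 95% intervals were 0.435 to 0.807%. The male germ line markers Dazl, Tnp1 and Prm1 were likewise at 0, and Ddx4 had 0, 1 and 0 counts in Myc_Utx and 17, 0 and 6 in Myc_p53.

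Rpl3, the large subunit protein next to the peptidyl transferase centre, had 1379, 1203 and 1539 CPM in the Myc_Utx lines and 849.4, 837.1 and 645.2 CPM in the Myc_p53 lines. The groups lay well apart (chromosome 15, 80077794 to 80091868, log2 difference 0.82, SE 0.16, edgeR adjusted p = 0.0261). Leaving out Myc_Utx 2A, 2B or 2D or Myc_p53 3 took the call away, with adjusted p up to 0.0915. Rpl3l (chromosome 17, 24727820 to 24736143) had 0, 1 and 0 counts in Myc_Utx and 7, 0 and 3 in Myc_p53, beside 4516 to 6914 counts of Rpl3 per line. No fold is given for counts so low, and of the muscle markers Acta1 had 3, 0 and 2 counts in Myc_Utx and 11, 4 and 9 in Myc_p53, Tnnt3 2, 0 and 0 against 1, 0 and 5, Ckm 1 count in Myc_p53 3 alone and Myh7 none. The part of these differences in the Rpl3l counts was not tested.

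**Figure D4:**
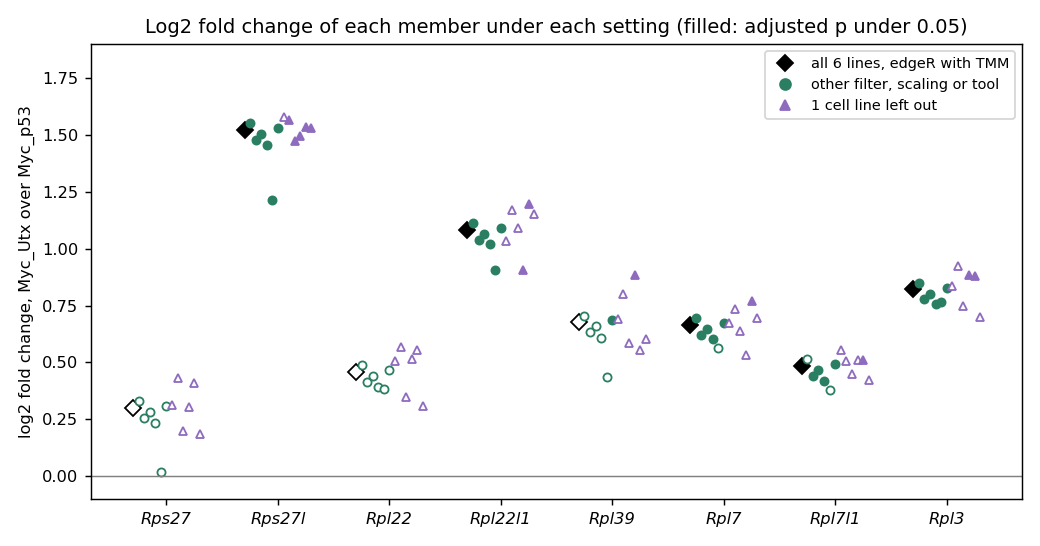
Log2 difference of each of the 8 members with all 6 lines (diamonds), with another filter, scaling or tool (circles) and with 1 cell line left out (triangles), filled where the adjusted p was under 0.05. Every point lies above 0, and Rps27 lies lowest, at 0.02 with the gene length offset.

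Levels were compared between genes per kilobase of the deposited transcript length. In Myc_Utx the order of mean level was Rpl7 (479 ± 33.7 CPM per kb), Rpl3 (440 ± 54.0), Rps27 (383 ± 62.6), Rps27l (358 ± 28.5), Rpl22 (173), Rpl39 (115), Rpl7l1 (87.2) and Rpl22l1 (68.7). The intervals of 1 SD of Rps27 and Rps27l overlapped there, as did those of Rpl7 and Rpl3 and of Rpl3 and Rps27. In Myc_p53 the order was Rps27 (311 ± 47.0 CPM per kb), Rpl7 (302 ± 49.0), Rpl3 (249 ± 36.7), Rpl22 (126), Rps27l (124 ± 3.16), Rpl39 (71.7), Rpl7l1 (62.3) and Rpl22l1 (32.5). There the intervals of 1 SD of Rps27, Rpl7 and Rpl3 overlapped. So did those of Rpl22 (SD 23.7) and Rps27l and those of Rpl39 (SD 17.5) and Rpl7l1 (SD 4.26). In Myc_p53 Rps27l lay clear of its partner Rps27. The order depends on the length used. With the main transcript's length the Myc_Utx means were 1160 for Rps27, 1110 for Rpl7, 1060 for Rpl22, 1020 for Rpl3, 586 for Rps27l, 269 for Rpl39, 248 for Rpl22l1 and 87.2 CPM per kb for Rpl7l1. In Myc_p53 Rps27 was then at 940, Rpl22 at 773 and Rps27l at 204 CPM per kb, so Rps27l lay below Rps27 in both genotypes by that length. By length Rps27l was 48.5 ± 3.03% of the pair in Myc_Utx and 28.8 ± 3.29% in Myc_p53 (SD, n = 3 each), and with the main transcript's length instead 33.8% and 18.0%.

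Read assignment limits some of these levels. Of the 50-base windows of the main transcript, 98.6% of those of Rps27 and 85.6% of those of Rpl3 also occur in other genes, mostly pseudogenes, against 22.4% for Rps27l. For Rpl22l1 and Rpl22 these were 57.3% and 24.5%, and for Rpl7 and Rpl7l1 53.3% and 9.03%. Summed over those genes, counts were at most 8 per line for Rps27, 1 for Rps27l and 64 for Rpl3. The shared windows of Rpl7l1 differed, since they occur in 252 other genes, of which only 6 are pseudogenes. Counts summed over these 252 genes reached 115471 in a line. How reads matching several places were counted is not given in the sources used here, so the levels of these genes and the shares within their pairs are uncertain, most of all for Rps27 and Rpl3. Of 8 pseudogene or retrogene rows of the members, 5 had more than 3 counts in a line: Rpl3-ps1 (14 to 26), Rpl3-ps2 (18 to 35), Rpl22-ps1 (4 to 12), Rpl39-ps (5 to 15) and Rps27rt (4 to 7).

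Of 3 further pairs, Rpl36al was higher in Myc_Utx, with 16.35, 14.42 and 19.6 against 8.533, 9.638 and 7.129 CPM (log2 0.99, SE 0.24, edgeR adjusted p = 0.0421). This call was lost without a filter (adjusted p = 0.074), with the gene length offset (0.0751) and without each line other than Myc_p53 2 (edgeR adjusted p = 0.0815 to 0.139). Its partner Rpl36a differed by 0.71 (SE 0.21, edgeR adjusted p = 0.0652), and their log2 ratio differed by 0.27 with overlap (two-sided exact permutation p = 0.4). Rpl10l had no counts beside Rpl10 (log2 0.76, SE 0.15, edgeR adjusted p = 0.027). Rps4l had at most 24 counts beside Rps4x (log2 0.62, SE 0.17, edgeR adjusted p = 0.0537). The Rpl10 call was lost without Myc_Utx 2A, 2B or 2D or Myc_p53 3 (edgeR adjusted p = 0.0671 to 0.0948), whereas Rpl36a and Rps4x passed without Myc_p53 1 (edgeR adjusted p = 0.0437 and 0.0382) and with DESeq2 (adjusted p = 0.0183 and 0.00873). Whether the ratio of Rps27l to Rps27 shifted more than that of another pair was not tested.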

How the data were processed

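RNA was sequenced from 6 mouse liver tumour cell lines. The table the authors deposited gives whole-number read counts for each gene, not normalized, with coordinates and a transcript length. The submitters' processing notes name Trimmomatic 0.36, STAR 2.5.3a, featureCounts 1.6.3, DESeq2 1.20.0 and the mouse build GRCm38 (mm10), whereas the study's methods name HTSeq, a human build and, at that place, a guide against Mll3 in place of Kdm6a; the labels were followed. Gene coordinates equalled GENCODE M21 for 95.9% of genes. Read length and the use of strand are not given in the sources used here.

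The genotype label defined the groups. The 10 members, the lists and the rule for named genes (all members, their pseudogenes above 3 counts, 3 further pairs, the 3 highest, 3 lowest and 3 most abundant ribosomal protein genes, 5 genes most like Rps27l, Kdm6a, Trp53 and Myc) were chosen with earlier results of these data known. Genes kept by filterByExpr (minimum count 10) in edgeR 4.0.16 (R 4.3.3) were scaled by TMM and compared with the quasi-likelihood test and Benjamini-Hochberg adjustment over 11510 genes, called at an adjusted p under 0.05. The standard error is the size of the log2 difference divided by the square root of F. CPM use TMM library sizes. Log2 ratios of counts within a pair used a pseudocount of 0.5 and a two-sided exact permutation test. For the cell type markers, lists of 8 cell types were summed. Promoter windows came from RefSeq (GRCm38.p6), with entries for 8 of the 10 members, and coding sequences from GENCODE M21. Count procedures were tested on simulated data.

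Alternatives were no filter, at least 10 counts in every line, DESeq2 size factors, total counts only, gene length offsets (splines with 5 degrees of freedom), DESeq2 1.42.0, pseudocounts of 0 and 2, and leaving out each line. The main transcript length was added after seeing the data. Library depth was 4656103 to 6937497 counts.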

Additional observations from a re-analysis of the deposited data

How the results depend on the processing

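No paired analysis was possible because the lines of the genotypes share no replicate labels. With gene length offsets, 3 members, 12 small and 8 large subunit genes were called higher, against 5, 16 and 16. Over all genes 691 were then called higher and 591 lower, against 805 and 885. The median log2 difference of the ribosomal protein genes was 0.425 against 0.601. The log2 differences of Rpl7 (0.57) and Rpl7l1 (0.38) no longer passed. Without a filter Rpl7l1 (0.51) did not pass. With DESeq2, 29 large subunit genes, 1281 genes higher and 1578 lower were called, and Rpl39 (0.68) passed. The median over all genes was -0.24 without a filter and -0.26 with DESeq2, each over 24221 genes, beside -0.01. Total counts alone gave 601 higher and 1009 lower calls beside 805 and 885. Across the omissions of a line, members called numbered 0 to 5, small subunit genes 0 to 19, large subunit genes 0 to 23, all genes higher 3 to 836 and lower 1 to 1118, the lowest without Myc_Utx 2A. The log2 differences ranged over these omissions from 1.48 to 1.58 for Rps27l, 0.91 to 1.20 for Rpl22l1, 0.53 to 0.77 for Rpl7, 0.42 to 0.55 for Rpl7l1, 0.70 to 0.93 for Rpl3, 0.56 to 0.89 for Rpl39, 0.19 to 0.43 for Rps27 and 0.31 to 0.57 for Rpl22. The log2 ratio of Rps27l to Rps27 differed by 1.12 to 1.35, that of Rpl22l1 by 0.37 to 0.88 and that of Rpl7l1 by -0.29 to -0.02. The log2 difference of Myc ranged from -0.30 to 0.068, above 0 without Myc_Utx 2A (0.0054) and without Myc_p53 1 (0.068). With the main transcript length the shares per kilobase were 33.8 and 18.0% for Rps27l, 19.0 and 13.4% for Rpl22l1, and 7.32 and 8.34% for Rpl7l1 (Myc_Utx, Myc_p53), against 48.5, 28.8, 28.6, 20.8, 15.4 and 17.3% with the deposited length. The cause of these changes was not tested. Ratios of Rpl39l and Rpl3l rest on the pseudocount and were not recomputed.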

Other observations

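The tested genes whose log2 CPM followed Rps27l most closely over the 6 lines were Cs, which encodes citrate synthase (Pearson r = 0.9971), Bub3, a spindle checkpoint gene (0.9969), Ybx1, a cold shock domain protein gene (0.9964), Taldo1, the transaldolase of the pentose phosphate pathway (0.9963), and Pepd, a dipeptidase gene (0.9962). These values describe 6 lines in 2 separate groups and were picked as the highest of 11510 genes, so no p is given. Each gene was higher in Myc_Utx, which follows from picking genes that track Rps27l and is not a separate result. The log2 differences ran from 0.67 for Cs to 1.68 for Pepd. Taldo1 had 157, 153 and 160.3 against 59.73, 57.09 and 57.6 CPM.

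The fibroblast or stellate markers did not move together. Pdgfrb had 874, 1454 and 517 counts in the Myc_Utx lines and 33, 953 and 702 in the Myc_p53 lines. Col1a1 had 177, 184 and 18 against 21, 777 and 1655 counts, and Dcn 1, 3 and 0 against 86, 9 and 109. The fibroblast or stellate list summed to 119.1 to 307.3 CPM in Myc_Utx and to 22.12 to 351.6 CPM in Myc_p53, with Lrat at 0. The biliary list summed to 61.68 to 89.95 against 82.11 to 443.1 CPM, and its genes did not move together either. Krt19 had 234, 25 and 129 against 2088, 325 and 2468 counts, and Krt7 1, 0 and 2 against 100, 3 and 459. Epcam had 13, 2 and 0 against 11, 4 and 34 counts. The Sox9 mean was higher in Myc_Utx, at 49.05 against 25.54 CPM, with overlap (edgeR adjusted p = 0.131). Endothelial markers were between 0 and 0.2227 CPM against 0.1854 to 1.141 CPM, the leukocyte marker Ptprc was at 0 against 0.158 to 0.4277 CPM, the muscle list was between 0 and 0.9972 against 0.7414 to 2.139 CPM, and the male germ line list between 0 and 0.1872 against 0 to 2.686 CPM.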
